A study of Homo sapiens with 6 samples.

Results

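The genes that start DNA synthesis at licensed replication origins were examined in SaOS-2 cells with and without induction of the CDK inhibitor p21. SaOS-2 is a human osteosarcoma line that lacks functional RB and p53. The members were the 9 genes CDC45, GINS1, GINS2, GINS3, GINS4, MCM10, DBF4, CDC7 and RECQL4, each found by its symbol among the 23228 gene names of the deposited table. The cells carried a doxycycline-inducible p21 vector in both groups and grew in DMEM with 10% serum. The p21 OFF group held 3 libraries of untreated cells and the p21 ON group 3 libraries of cells given 1 μg/ml doxycycline for 24 h by the labels. Polyadenylated RNA was sequenced, and values are read counts per gene divided by the DESeq2 size factor of the library, called normalized counts here. Cells given doxycycline without the vector were not analysed here, so what p21 does and what doxycycline does cannot be told apart. The labels do not say whether the line is 1 clone or whether the replicates, called biological in the methods, were separate cultures, so p-values measure the spread between these libraries only.

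Origins are licensed in G1, when the MCM2 to MCM7 helicase is loaded onto DNA in an inactive form. At the start of S phase the kinase CDC7, switched on by its regulatory subunit DBF4, and cyclin-dependent kinases promote the recruitment of CDC45 and of the GINS complex, a heterotetramer of GINS1 to GINS4, to the loaded helicase. CDC45, the MCM helicase and GINS together form the active CMG helicase, and MCM10 is needed for its activation and for DNA unwinding. RECQL4, a RecQ family helicase, also takes part in the step at which origins fire. As an inhibitor of cyclin-dependent kinases, p21 acts on the same step at the protein level, and the comparison made here concerns the transcripts of these factors.

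The libraries held 12795490 to 21975045 reads on genes, and the members were covered by at least 153 reads in each library. CDKN1A, the gene of p21, was counted at 1257, 1187 and 1355 with p21 OFF and at 40470.4, 43863 and 46739 with p21 ON, vector and endogenous transcripts together, a log2 fold change of 5.11 (standard error, SE, 0.07, limma adjusted p = 1.12e-19). RB1 transcripts were counted at a mean of 555 ± 66.8 with p21 OFF and 654 ± 39.7 with p21 ON (SD, n = 3). Of the osteoblast markers, RUNX2, SP7, ALPL and COL1A1 were each covered by at least 2411 reads in every library and IBSP, itself called lower with p21 ON (log2 fold change -0.38), by 82 to 170, SPP1 had at most 4 reads, and BGLAP, whose exons overlap PMF1-BGLAP, had 0. Of the markers of other cell types, EPCAM had 265 to 427 reads, KRT5 17 to 30 and PECAM1 9 to 16, and CD3E, CDH1, CDH5 and PTPRC had 0 to 11. The p21 OFF replicate 1 library stood apart from its group: its chi-square per gene against the other p21 OFF libraries was 8.48 and 9.28, against 3.06 between those other libraries and 2.71 to 3.97 within p21 ON. Without it the members called lower numbered 7, GINS2 being lost, and 1618 of the 13257 genes then tested were called lower.

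Of the members, 8 had lower transcript levels after p21 induction and CDC7 did not. The count was 8 of 9 called lower and 0 called higher by limma with Benjamini-Hochberg adjustment over the 13255 genes tested and an adjusted p-value under 0.05, a rule by which 12.7% of all genes were lower and 10.5% higher. Among the 6138 genes whose mean normalized count lay within the range of the members' means, from 309 to 2152, 16.1% were lower. Every p21 ON library lay below every p21 OFF library for 8 members, which held for 21.3% of all genes, and above for 1, CDC7, which held for 19.1%. The median log2 fold change was -0.67 over the members and 0.0056 over all genes tested, and single members ranged from -1.26 to 0.12. On whole reads recovered from the table, edgeR also called 8 members lower, against 12.4% of all genes, and DESeq2 called 7, against 10.8%. Over all genes 1393 were higher and 1681 lower with the authors' size factors, and 2034 higher and 1194 lower when libraries were scaled by their size alone, a scaling that moved the median of all genes to 0.05 and called 7 members lower. In bulk RNA, fewer cells that carry these transcripts and less of the transcripts per cell cannot be told apart.

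**Figure D1:**
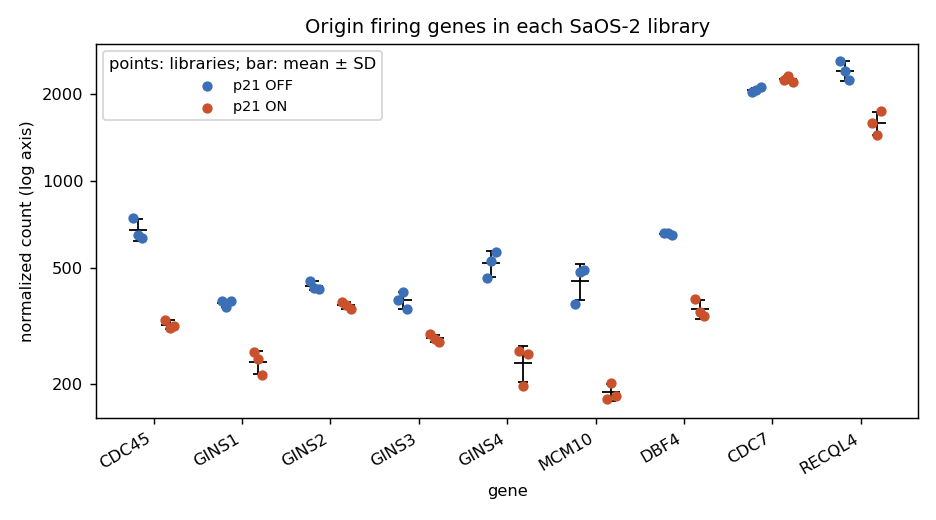
Normalized counts of the 9 origin firing genes on a log axis, with 1 point per library and the mean ± SD of the 3 libraries of each group. The p21 ON libraries lie below the p21 OFF libraries for every gene but CDC7, whose p21 ON libraries lie above.

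Promoter sequences are shown for the members with the largest and the smallest change, MCM10 and CDC7, and for the genes each is set beside below, CDC45 and DBF4, so that the letters of known cell cycle elements near their starts can be read. They come from RefSeq on GRCh38.p14, a different build from the hg19 of the counts, and run from 130 bases before a transcript start to 20 bases after it on the plus strand. For CDC45, with 3 listed starts, and CDC7, with 2, the start farthest downstream is shown, a choice made after the matches were seen. Capitals mark CCAAT, the CHR letters TTTGAA, and E2F-like letters (TTTCCCGC, TTTCGCGC, TTTGCCGC or TTTGGCGC, or the same with G as the last letter), each on either strand. The MCM10 stretch is chr10:13161428-13161577, that of CDC45 chr22:19479790-19479939, that of DBF4 chr7:87876363-87876512 and that of CDC7 chr1:91500982-91501131.
MCM10: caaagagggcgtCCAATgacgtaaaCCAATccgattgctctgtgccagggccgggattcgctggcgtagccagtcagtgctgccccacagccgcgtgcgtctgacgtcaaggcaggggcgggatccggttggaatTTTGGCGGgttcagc
CDC45: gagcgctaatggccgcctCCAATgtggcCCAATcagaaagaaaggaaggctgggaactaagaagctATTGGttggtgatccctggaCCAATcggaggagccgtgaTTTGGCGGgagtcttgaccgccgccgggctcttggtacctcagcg
DBF4: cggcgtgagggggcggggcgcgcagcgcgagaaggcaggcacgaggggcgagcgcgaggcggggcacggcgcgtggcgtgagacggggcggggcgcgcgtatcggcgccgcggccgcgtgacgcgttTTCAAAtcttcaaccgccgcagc
CDC7: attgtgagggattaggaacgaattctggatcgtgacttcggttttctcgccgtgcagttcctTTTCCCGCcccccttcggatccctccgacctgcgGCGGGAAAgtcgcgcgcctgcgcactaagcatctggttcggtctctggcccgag

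In these stretches MCM10 and CDC45 held CCAAT boxes and TTTGGCGG, DBF4 held the CHR letters across its start, and CDC7 held TTTCCCGC on both strands. The RefSeq table held 10 starts of 7 members, all but GINS4 and RECQL4. Over the whole 300 bases, from 250 before a start to 50 after it, the 4 E2F words that end in C were found at GINS1, GINS2, GINS3 and CDC7, which was 4 of the 10 member promoters (40.0%), and at 3.31% of the 35116 promoters in the table. With the words that end in G included, a set chosen after seeing the data, 6 of the 7 members had a match at any start, which was 6 of 10 member promoters (60.0%), and 6.19% of all promoters did. DBF4 had the only CHR match, 1 of 10 member promoters against 15.2% of all promoters. CCAAT was found at CDC45, GINS1, GINS2 and MCM10, 5 of 10 member promoters against 34.6% of all promoters. A match is a string of letters and was not tested as a binding site.

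CDC45, the subunit that joins the MCM ring and GINS in the active helicase, fell to 0.473 of its p21 OFF level. The gene spans 19466980 to 19508135 of chromosome 22 in hg19 and, like the other members but GINS2 and RECQL4, lies on the plus strand. Normalized counts were 746, 654 and 638 with p21 OFF and 333, 311 and 316 with p21 ON. The highest p21 ON library was thus far below the lowest p21 OFF library. Its log2 fold change was -1.08 (SE 0.08, 95% interval -1.25 to -0.91, limma adjusted p = 1.39e-08). Its p21 OFF replicate 1 library was the highest, and without that library the log2 fold change was -1.01.

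All 4 GINS subunits were called lower, with log2 fold changes from -1.14 to -0.22. GINS4, the SLD5 subunit, at 41386737 to 41402549 of chromosome 8, had 462, 529.6 and 568 normalized counts with p21 OFF and 259.6, 197 and 254 with p21 ON. Its log2 fold change of -1.14 (SE 0.11, limma adjusted p = 3.49e-07) was the most negative of the 4, and it was -1.22 without p21 OFF replicate 1, the lowest p21 OFF library. GINS1, the PSF1 subunit, at 25371644 to 25433336 of chromosome 20, had 387, 368 and 385 against 257, 244 and 215, a log2 fold change of -0.67 (SE 0.09, limma adjusted p = 3.71e-05). GINS3, the PSF3 subunit, at 58328984 to 58440051 of chromosome 16, had 389, 415 and 363 against 297, 285 and 279, a log2 fold change of -0.44 (SE 0.09, limma adjusted p = 0.00149). For each of these subunits no p21 ON library reached the lowest p21 OFF library. GINS2, the PSF2 subunit, at 85709804 to 85723679 of chromosome 16, had 453, 428 and 425 normalized counts with p21 OFF and 383, 373 and 363 with p21 ON. Its log2 fold change of -0.22 (95% interval -0.39 to -0.06) passed narrowly, with a limma adjusted p = 0.047. The groups did not overlap, but the call of GINS2 held in 5 of 16 alternative fits and was lost whenever any 1 library was left out, with log2 fold changes of -0.24 to -0.19 and adjusted p-values over all alternatives of 0.0442 to 0.128.

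MCM10, which acts on the assembled CMG helicase, showed the largest fall of the members. The gene spans 13203558 to 13253110 of chromosome 10 and had 378, 485 and 494 normalized counts with p21 OFF and 178, 202 and 181 with p21 ON. Its fold was 0.418, with a log2 fold change of -1.26, a 95% interval of -1.48 to -1.04 (SE 0.11, limma adjusted p = 6.38e-08), and 78 of the 13255 genes tested had a lower log2 fold change. The p21 OFF replicate 1 library was the lowest of its group, and without it the log2 fold change was -1.38. The reads behind these values were 153 to 668 per library.

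Of the kinase that triggers firing, the regulatory subunit DBF4 fell and the catalytic subunit CDC7 was not called, and their difference is tested below as a ratio. DBF4, at 87505531 to 87538868 of chromosome 7, had 661, 663 and 653 normalized counts with p21 OFF and 393, 353 and 342 with p21 ON. The p21 OFF libraries were nearly equal and all p21 ON libraries lay below them, a log2 fold change of -0.86 (SE 0.08, limma adjusted p = 1.90e-07). CDC7, at 91966408 to 91991321 of chromosome 1, had 2029.5, 2063 and 2099.9 normalized counts with p21 OFF and 2235, 2296 and 2187 with p21 ON. Although every p21 ON library of CDC7 was higher, the log2 fold change of 0.12 (SE 0.06, 95% interval -0.0046 to 0.24) did not pass the threshold (limma adjusted p = 0.151). It was called in 0 of 16 alternative fits, with adjusted p-values of 0.0507 to 0.307. DBF4B, another regulatory subunit of CDC7, went from a mean of 1220 ± 123 with p21 OFF to 534 ± 32.4 with p21 ON (SD, n = 3), and fell by 1.19 on the log2 scale (limma adjusted p = 2.46e-09).

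RECQL4, at 145736671 to 145743229 of chromosome 8 on the minus strand, had 2591, 2389.5 and 2220.4 normalized counts with p21 OFF and 1579, 1439 and 1737 with p21 ON. The lowest p21 OFF library stood well above the highest p21 ON library, with a log2 fold change of -0.60, a 95% interval of -0.76 to -0.44 (SE 0.07, limma adjusted p = 1.46e-05). Among the 4 other RecQ helicases, BLM, the Bloom syndrome helicase, was called lower with a log2 fold change of -1.10, RECQL5 was called higher with 0.19, and RECQL (-0.16) and WRN (-0.09) were neither. The call of RECQL5 held in 10 of 16 alternatives. Without p21 OFF replicate 1 the log2 fold changes of RECQL4, DBF4, GINS1, GINS3 and CDC7 were -0.54, -0.86, -0.66, -0.43 and 0.11.

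Exons of CDC45, GINS1, GINS2, GINS3, GINS4, DBF4 and RECQL4 share bases with exons that GENCODE release 44 places on the other strand, and those of MCM10 and CDC7 do not. The library kit keeps the strand, but the strand setting of the counting is not given in the sources used here, so reads of such partners may be included.

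The members were also compared by their ratio to each other within a library, which depends little on how libraries are scaled. With 3 libraries against 3, the exact two-sided permutation test cannot give a p-value under 0.1, and 8 ratios were tested. The DBF4 to CDC7 ratio of normalized counts was 0.325, 0.321 and 0.311 with p21 OFF and 0.176, 0.154 and 0.156 with p21 ON, a difference of -0.98 on the log2 scale (exact permutation p = 0.1, adjusted p = 0.133). The ratio of CDC45 to MCM2, a subunit of the helicase it joins, went from 0.24, 0.209 and 0.191 to 0.0892, 0.078 and 0.0819, a log2 difference of -1.36 (exact permutation p = 0.1). Both ratios were separated between the groups without overlap. The share of all gene pairs so separated was not counted. Of single genes, 21.3% lay below and 19.1% above without overlap in p21 ON libraries. Each log2 difference is that between the fold changes of the paired genes, so it is not separate evidence. The size of the CDC45 to MCM2 difference depends on the subunit chosen, and no other subunit was set against CDC45. Log2 fold changes of MCM2 to MCM7 ranged from -0.08 (MCM7) to 0.47 (MCM6). Set against CDC45, GINS2 was higher by 0.86 on the log2 scale, GINS3 by 0.65, RECQL4 by 0.48 and GINS1 by 0.41 in p21 ON libraries, each without overlap and each with an exact permutation p = 0.1 (adjusted p = 0.133). The GINS4 to CDC45 and MCM10 to CDC45 ratios overlapped between the groups, with log2 differences of -0.06 (exact permutation p = 0.7) and -0.18 (exact permutation p = 0.4). The sign of the GINS4 to CDC45 difference depended on single libraries: it was 0.054 without p21 OFF replicate 3 and 0.049 without p21 ON replicate 2. The MCM10 to CDC45 difference was -0.37 without p21 OFF replicate 1 and -0.07 without p21 OFF replicate 3.

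**Figure D2:**
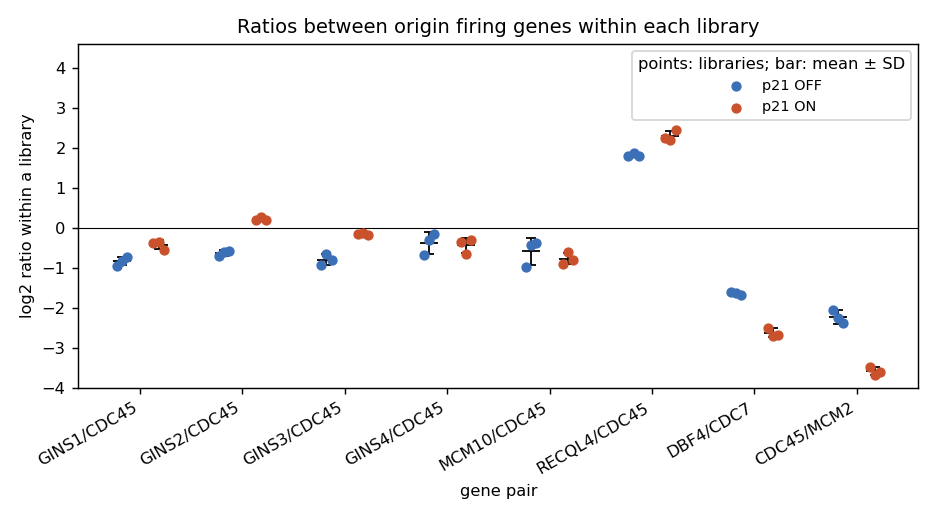
Log2 ratio of normalized counts of 8 gene pairs within each library, with 1 point per library and the mean ± SD of 3 libraries per group. DBF4/CDC7 and CDC45/MCM2 are lower in p21 ON libraries, 4 ratios to CDC45 are higher, and the groups overlap for GINS4/CDC45 and MCM10/CDC45.

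Levels of different genes were compared as normalized counts per kilobase of annotated exons. In p21 OFF cells CDC7 (574 ± 9.79, SD, n = 3) and RECQL4 (531 ± 41.1) stood highest, and their libraries overlapped. CDC45 followed at 228 ± 19.6, DBF4 at 143 ± 1.19 and GINS2 at 135 ± 4.84, each without overlap with its neighbour in the order. GINS4 (95.5 ± 9.87), MCM10 (82.9 ± 11.8) and GINS3 (76.2 ± 5.08) overlapped in turn, and GINS1 was lowest at 47.4 ± 1.30. CDC7 was 12.1 times GINS1 per kilobase, or 7.38 times when the length of the longest transcript was used. The merged exons of GINS1 span 8.017 kb. In p21 ON cells CDC7 (622 ± 15.2) stood above RECQL4 (351 ± 33.0) without overlap, and GINS2 (116 ± 3.11) came before CDC45 (107 ± 3.88). DBF4 (79.0 ± 5.88) and GINS3 (56.2 ± 1.74) followed, GINS4 (43.5 ± 6.31) and MCM10 (34.3 ± 2.40) overlapped, and GINS1 had 29.8 ± 2.71. With the longest transcript as the length, CDC45 stayed before GINS2 in p21 ON cells and MCM10 (40.8) was lowest there, below GINS1 (53.0) without overlap. In p21 OFF cells GINS3 then stood above MCM10, and GINS1 stayed lowest by its mean with libraries that overlapped those of MCM10.

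**Figure D3:**
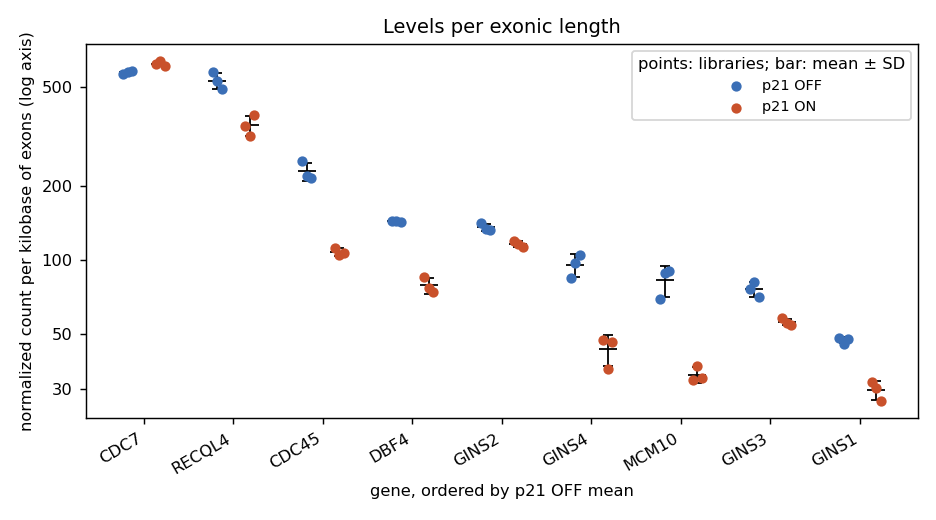
Normalized counts per kilobase of exons of the 9 genes on a log axis, ordered by the p21 OFF mean, with 1 point per library and the mean ± SD of 3 libraries per group. CDC7 and RECQL4 lie above 300 in every library, and GINS1 has the lowest mean in both groups by this length, but not in p21 ON cells by that of the longest transcript.

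The other factors that act with the members at origins or forks were mixed. Of 14 listed partners, 6 were called lower, 1 higher and 7 neither, with a median log2 fold change of -0.15. Over all genes tested 12.7% were lower and 10.5% higher. TICRR, known as treslin and listed in the table as C15orf42, bridges cyclin-dependent kinase activity to CDC45 loading. It fell from 779, 997 and 937 normalized counts to 439, 381 and 383, a log2 change of -1.17 (limma adjusted p = 2.33e-08), and MTBP, its binding partner, fell by 0.50 on the log2 scale (adjusted p = 0.000629). TOPBP1, the scaffold that binds treslin, was called lower with -0.20, a call that held in 11 of 16 alternatives and was lost under scaling by library size and without p21 OFF replicate 2 or 3 or p21 ON replicate 1 or 3. Of the fork components, TIMELESS fell by 0.30 and POLE3, a small subunit of DNA polymerase epsilon, by 0.39 on the log2 scale. RIF1, which opposes CDC7 through protein phosphatase 1, was the partner called higher (0.26, adjusted p = 0.0135), and the call was lost without p21 ON replicate 1. No call was made for DONSON (0.15), CLSPN (-0.13), WDHD1 (-0.07), POLE (0.17), POLE2 (-0.06), POLE4 (-0.16) or TIPIN (0.0014). Over the alternatives 5 to 7 partners were called lower. CLSPN was called lower in 1 of 16 alternatives, without p21 OFF replicate 1 (-0.21), and POLE was called higher in 3, with 0.11 and no call without that library, and DONSON in 2.

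The genes of the preceding licensing step differed among themselves. Of 15 origin recognition, loading and MCM genes, 4 were called lower, 5 higher and 6 neither, with a median log2 fold change of -0.13. The shares over all genes tested were 12.7% lower and 10.5% higher. The helicase subunits MCM2, MCM3, MCM4, MCM5 and MCM6 were all called higher, by 0.25 to 0.47 on the log2 scale and in 16 of 16 alternative fits each, while MCM7 had -0.08 and no call. CDC45 and the GINS subunits, which join this helicase, were called in the opposite direction, GINS2 in only 5 of 16 alternative fits. The genes called lower were ORC6 (-1.28), ORC1 (-0.57), ORC3 (-0.53) and GMNN (-0.38), GMNN encoding geminin, an inhibitor of licensing. CDC6 (-0.17) and CDT1 (0.08), which load the helicase, were not called. CDC6 was called lower in 1 of 16 alternative fits, and the fold change of CDT1 changed sign in 1.

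**Figure D4:**
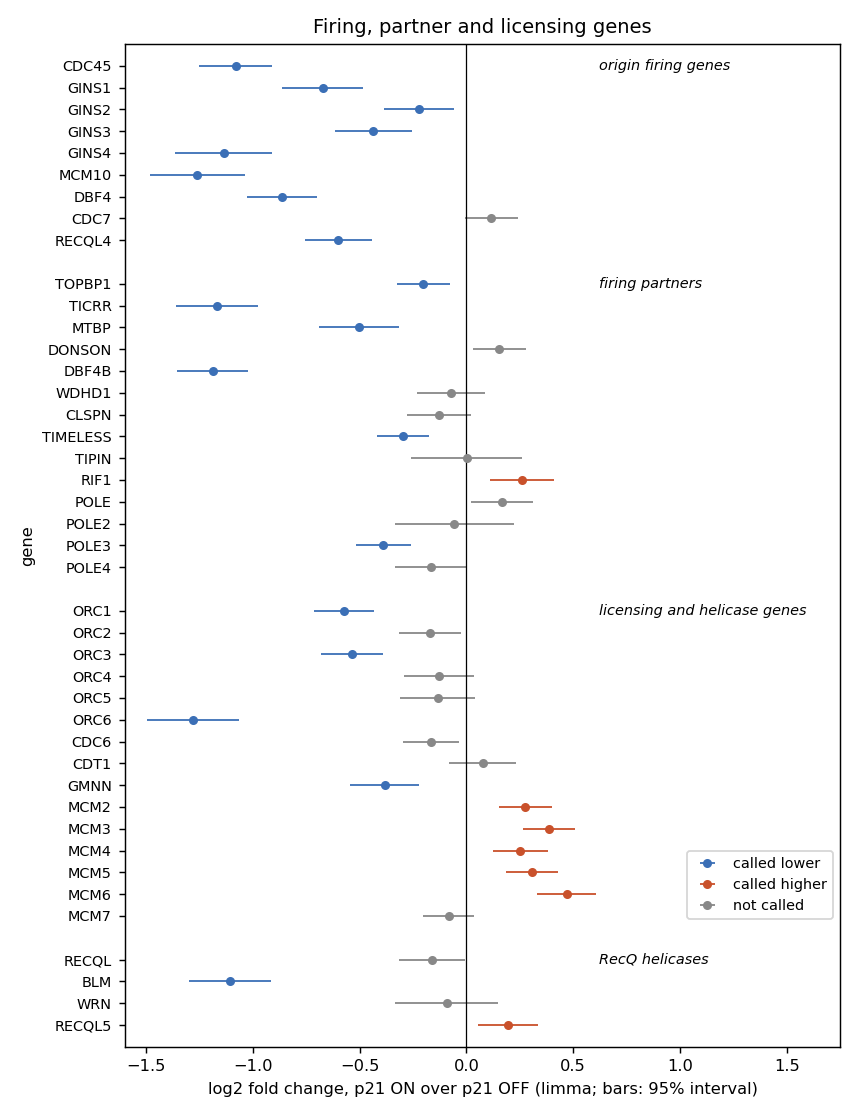
Log2 fold changes of p21 ON over p21 OFF from limma with 95% intervals for the 9 origin firing genes, 14 partners, 15 licensing and helicase genes and 4 RecQ helicases, coloured by call at an adjusted p-value under 0.05. The origin firing genes lie left of 0 except CDC7, and MCM2 to MCM6 lie right of 0.

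By the lists of cell cycle genes that the study took from an earlier meta-analysis, 7 of the members are G1/S genes, MCM10 and GINS2 in the high-stringency list, and DBF4 is a low-stringency G2/M gene. GINS4 is in none of the 4 lists. The genes outside the lists above whose centred log2 values were closest to those of MCM10 over the 6 libraries, among 10401 with a mean of at least 100, were BUB1B, FOXM1 and KIF14, with root mean square differences of 0.0856, 0.0862 and 0.091. Their log2 fold changes were -1.27, -1.23 and -1.31. For CDC7 the closest were CTTN, G3BP2 and KIAA0922, with differences of 0.0075 to 0.0122 and no call for any of them. This likeness was measured over the same 6 libraries as the fold changes, so fold changes near those of MCM10 and CDC7 follow from how the genes were chosen.

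**Figure D5:**
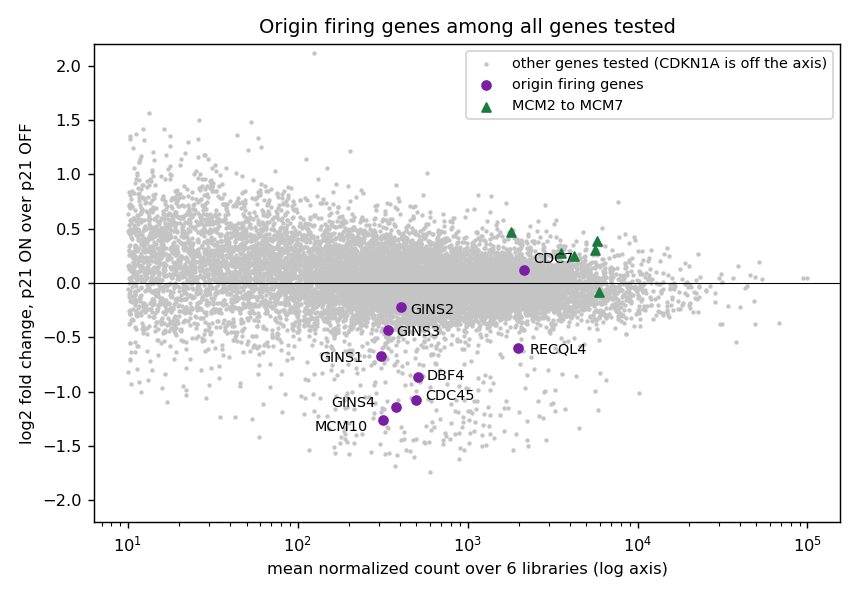
Log2 fold change of p21 ON over p21 OFF against the mean normalized count over 6 libraries (log axis) for all 13255 genes tested, with the origin firing genes and MCM2 to MCM7 marked. MCM10, GINS4 and CDC45 lie toward the lower edge of the cloud at their level, and CDC7 lies near 0.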

How the data were processed

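The authors prepared stranded mRNA libraries, sequenced single-end reads in 1 lane, mapped them to hg19 with STAR, counted reads per gene name with HTSeq and divided the counts by DESeq2 size factors. The deposited signal values are these normalized counts, and tool versions and the gene annotation are not given in the sources used here. In each library 100% of values were whole multiples of 1 step (within 0.01 of a whole number), which returned the reads, and each inverse step equalled the size factor recomputed from them. The 13255 genes whose normalized counts averaged 10 or more were tested with limma 3.58.1 (lmFit, eBayes with a trend) in R 4.3.3 on log2(normalized count + 1), without covariates, and fold changes, given on this scale, are understated for low genes. Alternatives were edgeR 4.0.16, DESeq2 1.42.0 and limma-voom on the reads, other scalings, pseudocounts and filters, a replicate block, and each library left out. The scripts were checked on simulated counts. Groups came from sample titles. Positions and exon lengths were taken from GENCODE 44 as mapped to GRCh37 (hg19). The members and gene lists were chosen with earlier results of these data known. All members and every gene of the lists could be named, and for the largest and the smallest member change the 3 nearest profiles. TICRR was matched by an older symbol. Values of 3 further check genes are not reported here.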

Additional observations from a re-analysis of the deposited data

How the results depend on the processing

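Of the members, 7 kept their direction and their call in all 16 alternatives, CDC7 was called in 0, and no member changed sign. The share of all genes that kept a call in all 16 was not counted. GINS2 was no longer called by DESeq2 (-0.22, adjusted p = 0.114), by limma-voom (-0.22, adjusted p = 0.0525), under scaling by library size alone (-0.18, adjusted p = 0.11), without a filter on low values (-0.22, adjusted p = 0.0596), with a replicate block (-0.22, adjusted p = 0.0882), or with any library left out (-0.24 to -0.19). With each library left out the genes called lower numbered 888 to 1662 and those called higher 692 to 1488, with the fewest without p21 ON replicate 1 (888 and 692) and without p21 ON replicate 3 (1076 and 739). Partners called higher numbered 3 under scaling by library size alone and 0 to 2 with a library left out. The 1 RecQ helicase called higher, RECQL5, became 0 without a filter, with the replicate block, and when p21 OFF replicate 2 or 3, or p21 ON replicate 1 or 3, was left out, and with a library left out the number was 0 to 1. The GINS4 to CDC45 difference was -0.21 to 0.054 with a library left out and changed sign when p21 OFF replicate 3 (0.054) or else p21 ON replicate 2 (0.049) was left out. The spread of levels per kilobase was 7.38 in place of 12.1 with the longest transcript as the length. For these changes the cause was not tested, except that a length alone changed the last. Same-numbered libraries did not deviate together (correlations of -0.06, -0.02 and -0.05), which cannot show that they shared no culture or batch. The replicate block (1513 lower, 1407 higher, 7 members lower) rests on the number in the sample titles and was not used as a pairing. Depth limits MCM10 and GINS4 most, with 153 and 162 reads in their smallest library.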

Other observations

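After the values were seen, the 7 members with RefSeq starts were listed by the E2F letters there. GINS4 (-1.14) and RECQL4 (-0.60) had no start to list. The 4 with a word that ends in C had log2 fold changes of -0.67 (GINS1), -0.44 (GINS3), -0.22 (GINS2) and 0.12 (CDC7), and the 3 without had -1.26 (MCM10), -1.08 (CDC45) and -0.86 (DBF4). With words that end in G included, MCM10 and CDC45 also had a match and DBF4 alone had none. The order thus rests on the letters chosen, and it was not tested. The matches of CDC7 and CDC45 lay only at the start farthest downstream.

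Within the p21 OFF group the replicate 1 library was lowest for GINS4, MCM10 and CDC7, highest for CDC45, GINS1, GINS2 and RECQL4, and between the others for GINS3 and DBF4. Summed over the 9 members, normalized counts were 8097, 7995 and 7846 with p21 OFF and 5915, 5699.9 and 5874 with p21 ON.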
